A study of Mus musculus with 12 samples.

Results

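The inflammasome and gasdermin genes described, 10 in all, are the sensors Nlrp3, Nlrc4 and Aim2, the adaptor Pycard, the caspases Casp1 and Casp4, the pore formers Gsdmd and Gsdme, and the cytokines Il1b and Il18. They were chosen by symbol from the 55281 genes of a bulk RNA sequencing table, 1 row per gene, and all 10 passed the filter on low counts. The libraries were made from gonadal white adipose tissue (GWAT) of male mice aged 22 to 24 weeks, after 16 weeks on a control diet (CD, 14% fat) or a high-fat diet (HFD, 60% fat) begun at 6 weeks of age. Both genotypes carried floxed Hoip alleles (Hoip fl/fl). WT mice lacked the Cre transgene (AdipoQ.Cre-), and HoipA-KO mice carried it (AdipoQ.Cre+), which removes HOIP, the catalytic subunit of the linear ubiquitin assembly complex, from mature adipocytes only. Each of the 4 groups (WT CD, WT HFD, HoipA-KO CD and HoipA-KO HFD) had 3 libraries, and each library held tissue of 3 mice pooled, so the p-values measure the spread between pools and not between single mice.

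Inflammasomes are cytosolic complexes in which a sensor such as NLRP3, NLRC4 or AIM2 recruits the adaptor ASC (gene Pycard) and activates caspase-1. Caspase-1 cuts pro-IL-1β and pro-IL-18 into their active forms and cuts gasdermin D, whose N-terminal part forms pores in the plasma membrane and causes pyroptosis. Caspase-11 (gene Casp4 in these files), which binds cytosolic lipopolysaccharide, cuts gasdermin D as well, and gasdermin E (Gsdme) is a related pore former. In obese adipose tissue these genes are best known from macrophages. Abundance of a transcript does not measure complex assembly, cleavage or release, and none of these was measured here.

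Library totals ran from 30513500 to 60540260 estimated counts, and 3 counts corresponded to 0.0524 to 0.0996 CPM, the count scaled to library size with TMM factors. Rnf31, which encodes HOIP, was not called between genotypes, with a log2 fold change of -0.08 ± 0.14 (SE) on CD and 0.13 ± 0.12 on HFD, so whole-tissue RNA did not check the deletion in adipocytes. WT CD replicate 3 stood apart: 3524 genes were over 8 times above every other library there and held 19.6% of its counts. In WT CD replicate 2 there were 347 such genes with 6.83% of the counts, and 8 markers of epididymal epithelium summed to 19100 CPM there, to 1610 CPM in HoipA-KO HFD replicate 1 and to at most 102 CPM elsewhere. The deposited comparisons of the study leave WT CD replicate 3 out, without a reason in the sources used here. The fit used here therefore had 11 libraries, the fit with all 12 is given beside it, and CPM values cover all 12 libraries.

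On CD 9 of the 10 genes rose in HoipA-KO GWAT, in a comparison in which 18.9% of the 18427 genes tested were called higher and 18.8% lower (edgeR's quasi-likelihood test, Benjamini-Hochberg adjusted p under 0.05). The median log2 fold change of the 10 genes was 2.57, against -0.06 over all genes tested, and the 9 ranged up to 3.72. Gsdme was the exception at -0.25 ± 0.28 (SE, adjusted p = 0.495). Over all 12 libraries 8 genes were called higher, where 15.6% of all genes were called higher and 19.1% lower, and the median of all genes moved to -0.21. In each of the 9 genes every HoipA-KO CD library lay above every WT CD library, replicate 3 included, while 20.7% of the genes tested over 12 libraries separated in that direction and 18.1% in the other.

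**Figure D1:**
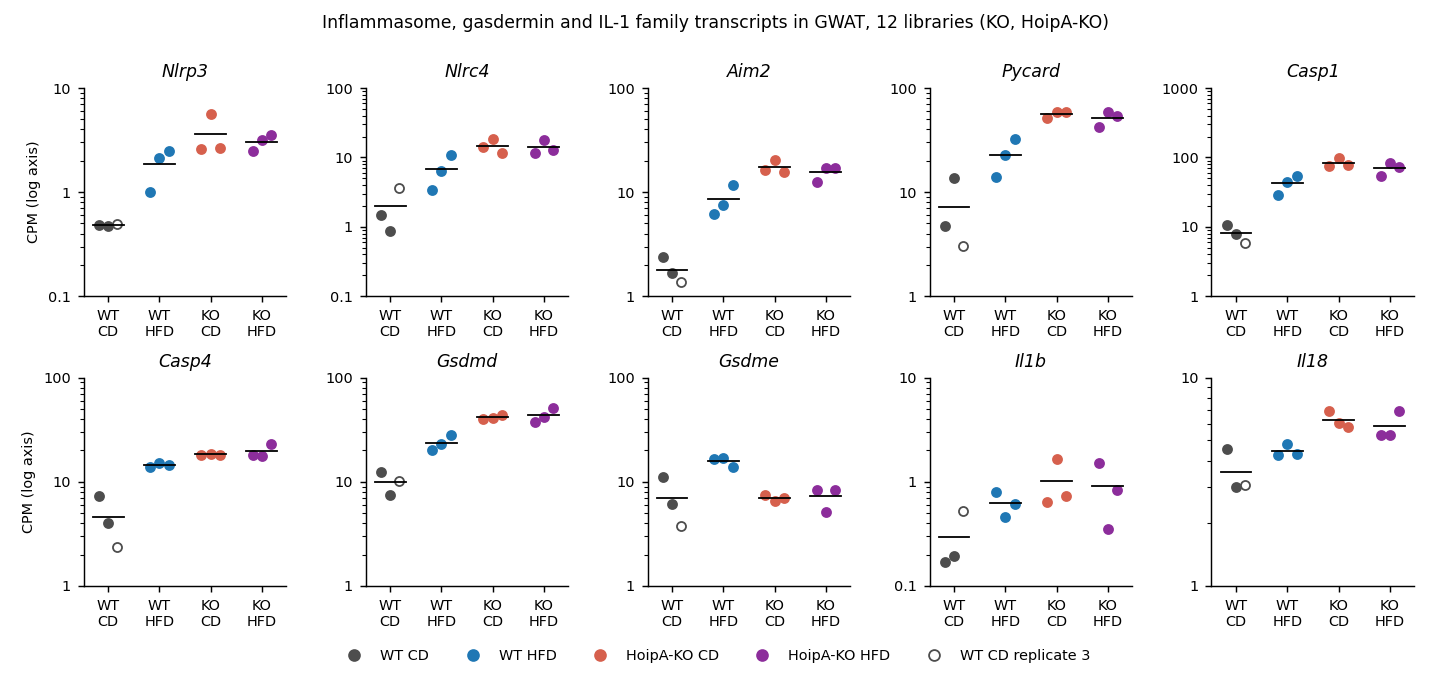
Level of each gene in CPM (log axis) in the 12 GWAT libraries, by genotype and diet (KO, HoipA-KO). A point is 1 library of 3 pooled mice, the open circle is WT CD replicate 3 and the bar is the mean of 3 libraries. WT CD lies lowest and both HoipA-KO groups lie highest in most panels, but Gsdme is highest in WT HFD.

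Of the sensors, Nlrc4, which with NAIP proteins recognises bacterial flagellin and secretion needles, had the largest fold change of the 10 genes on CD. Its level was 1.46, 0.857 and 3.61 CPM in WT CD and 14.3, 18.5 and 11.7 CPM in HoipA-KO CD, here and throughout in the order of replicates 1 to 3. WT CD replicate 3 was the highest of its group, and the 13.1-fold rise (log2 fold change 3.72 ± 0.53, adjusted p = 0.000945) was 7.18-fold with all 12 libraries. Over 18 alternative settings the log2 fold change ran from 2.49, with replicate 3 in place of WT CD replicate 2, to 4.12. Aim2, a receptor for cytosolic DNA, was at 2.36, 1.67 and 1.38 CPM in WT CD and at 16.4, 20.3 and 15.5 CPM in HoipA-KO CD. The groups were far apart and the spread within each was small, giving a log2 fold change of 3.14 ± 0.34 (8.84-fold, adjusted p = 0.000452). Nlrp3, the sensor that responds to potassium loss, crystals and extracellular ATP, was expressed at 0.487, 0.471 and 0.489 CPM in WT CD, which are 20 to 28 counts per library. In HoipA-KO CD it reached 2.58, 5.58 and 2.68 CPM (log2 fold change 2.95 ± 0.53, adjusted p = 0.00268), with replicate 2 well above the other two.

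Pycard, the adaptor that links the sensors to caspase-1, rose 6.25-fold on CD (log2 fold change 2.64 ± 0.47, adjusted p = 0.00264). Its values were 4.77, 13.7 and 3.04 CPM in WT CD and 51.9, 58.8 and 59.5 CPM in HoipA-KO CD. WT CD replicate 2, the library with the epididymal markers, was the highest of its group. The fold change ranged from 2.06 to 3.84 on the log2 scale over 18 alternative settings and was called in each. On GRCm38 Nlrc4 lies at chr17:74425438-74459142 and Pycard at chr7:127989708-127993867 on the reverse strand, and Aim2 at chr1:173350879-173466040 and Nlrp3 at chr11:59541568-59566956 on the forward strand, all but Nlrp3 overlapping another annotated gene.

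Casp1 rose 9.44-fold on CD (log2 fold change 3.24 ± 0.34, adjusted p = 0.000452). It was at 10.5, 7.77 and 5.85 CPM in WT CD and at 75.0, 98.6 and 77.9 CPM in HoipA-KO CD. Casp4 rose less, 3.32-fold (log2 fold change 1.73 ± 0.25, adjusted p = 0.00092), from 7.31, 4.0 and 2.37 CPM to 18.2, 18.6 and 18.1 CPM. The 3 HoipA-KO CD libraries were nearly identical for Casp4, and the WT CD libraries differed among themselves by over 3 times. The log2 fold change of Casp4 ran from 1.37 without WT CD replicate 2 to 2.51 with replicate 3 in place of WT CD replicate 1, and was called in all 18 alternative settings. The log2 ratio of Casp1 to Casp4 was 0.91 ± 0.38 (SD, n = 3) in WT CD and 2.18 ± 0.19 in HoipA-KO CD, a difference of 1.27 with no overlap between groups (exact permutation test, two-sided p = 0.1, which is the smallest that 3 against 3 libraries allow). Both genes lie on the forward strand of chromosome 9 of GRCm38, Casp1 at chr9:5298517-5307265 and Casp4 at chr9:5308828-5336783 in GENCODE M21, with 1562 bases between them. The counts were summed per gene, so they do not tell exons or isoforms apart.

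The upstream sequences of Casp1, Casp4 and Nlrp3 are shown as examples of members called higher on CD, although their rises differed in size. They come from the RefSeq promoter windows on GRCm38.p6, from 250 bases before the start, and end where the first annotated exon begins. Both strands were searched. Capitals mark GAGGAA (the core bound by the myeloid factor PU.1) in Casp1 and the NF-κB type motif in Casp4 and Nlrp3, which is GGG, any 2 bases, TT, any base and CC.

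Casp1, chr9:5298267-5298516, forward strand: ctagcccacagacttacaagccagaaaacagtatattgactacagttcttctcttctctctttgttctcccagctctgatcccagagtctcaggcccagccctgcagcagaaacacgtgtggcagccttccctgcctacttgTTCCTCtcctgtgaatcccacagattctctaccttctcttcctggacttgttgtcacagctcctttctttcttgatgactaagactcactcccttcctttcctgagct

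Casp4, chr9:5308599-5308827, forward strand: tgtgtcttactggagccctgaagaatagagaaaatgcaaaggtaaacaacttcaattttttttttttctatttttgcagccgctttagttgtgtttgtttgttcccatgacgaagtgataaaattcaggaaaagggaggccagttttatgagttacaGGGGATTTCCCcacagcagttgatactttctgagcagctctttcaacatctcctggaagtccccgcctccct

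Nlrp3, chr11:59541319-59541567, forward strand: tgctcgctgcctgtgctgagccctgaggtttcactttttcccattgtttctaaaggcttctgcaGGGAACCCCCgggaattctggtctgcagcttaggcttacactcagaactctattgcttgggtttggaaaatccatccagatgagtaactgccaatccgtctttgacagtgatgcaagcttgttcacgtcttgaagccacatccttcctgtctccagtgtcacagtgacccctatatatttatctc

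Casp4 held 2 overlapping NF-κB type matches starting at -93 and -92 and another at -14, past the printed stretch, Nlrp3 held 1 at -186, and Casp1 held 1 PU.1 core at -108. Of 32851 promoter windows of the same length, 4.11% held the NF-κB type motif and 23.3% held GAGGAA. Windows were found for 9 of the 10 genes (11 windows), and Gsdmd had no entry. Casp4 and Nlrp3 had 2 windows each, those of Casp4 largely the same bases, so shares of the 11 windows count these genes again. PU.1 cores were also in the windows of Aim2, Pycard and another Nlrp3 start. Matches were counted over whole windows, and the windows of Pycard and Gsdme lay entirely in annotated exons. None of the 11 held the interferon response core, which is GAAA, any 2 bases and GAAA (2.98% of all windows), the STAT type TTCNNNGAA (7.02%) or the AP-1 type TGANTCA (6.75%), and C/EBP type TTNNGNAA letters were in 9 of the 11 against 36.8% of all. These are matches of letters, not measured binding.

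The gasdermins parted. Gsdmd rose 4.30-fold on CD (log2 fold change 2.10 ± 0.24, adjusted p = 0.000498), from 12.3, 7.54 and 10.1 CPM in WT CD to 39.8, 40.9 and 44.0 CPM in HoipA-KO CD. Gsdme was at 11, 6.08 and 3.79 CPM in WT CD and at 7.43, 6.56 and 7.04 CPM in HoipA-KO CD, so the groups overlapped. Its direction on CD turned with 1 library: without WT CD replicate 1 the log2 fold change was 0.22 in the fit of 11 libraries, and with all 12 libraries it was -0.01. Gsdmd lies at chr15:75862327-75867408 and Gsdme on the reverse strand at chr6:50188888-50263862, where it overlaps Mpp6 on the other strand. The log2 ratio of Gsdmd to Gsdme was 0.62 ± 0.67 (SD, n = 3) in WT CD and 2.55 ± 0.13 in HoipA-KO CD, a difference of 1.94 without overlap (exact permutation test, two-sided p = 0.1).

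**Figure D2:**
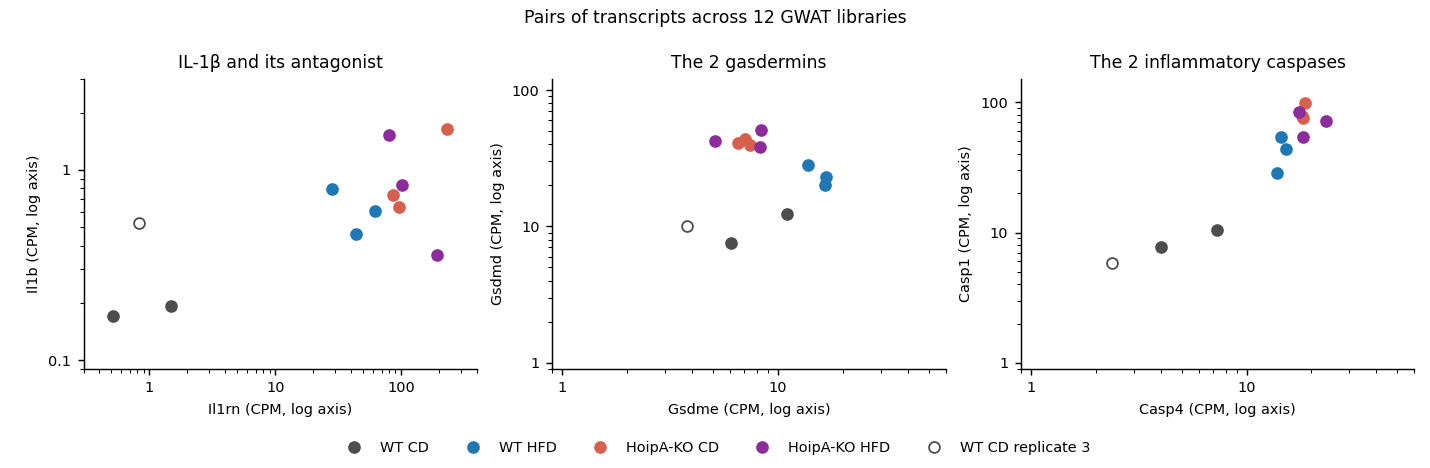
Levels of 3 pairs of transcripts in CPM (log axes) in the 12 GWAT libraries, each point 1 library and the open circle WT CD replicate 3: Il1b against Il1rn, Gsdmd against Gsdme, and Casp1 against Casp4. Il1rn spans from 0.512 to 232 CPM while Il1b stays between 0.171 and 1.65 CPM, and the HoipA-KO libraries lie at high Gsdmd and low Gsdme.

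The calls of both cytokine transcripts depended on the libraries used. Il1b was at 0.171, 0.193 and 0.523 CPM in WT CD and at 0.641, 1.65 and 0.737 CPM in HoipA-KO CD, which rested on 7 to 30 counts per WT CD library. Its rise of 5.68-fold (log2 fold change 2.51 ± 0.71, adjusted p = 0.0204) was not called over 12 libraries (1.70 ± 0.66, adjusted p = 0.0669), nor without WT CD replicate 1, WT CD replicate 2 or HoipA-KO CD replicate 2 in the 11-library fit. Il18, whose product induces interferon-γ, was at 4.56, 3.00 and 3.05 CPM in WT CD and at 6.95, 6.04 and 5.77 CPM in HoipA-KO CD. The groups did not overlap, and the rise was 1.70-fold (log2 fold change 0.76 ± 0.25, adjusted p = 0.0357). This call was lost under 11 of 18 alternative settings, among them the omission of any 1 library except WT CD replicate 1 and HoipA-KO HFD replicates 2 and 3, with the estimate between 0.50 and 1.08 throughout. GENCODE M21 places an antisense gene, Il1bos, over Il1b (chr2:129364570-129371139, reverse strand), and Bco2 and Tex12 opposite Il18 (chr9:50554827-50581840, forward strand). The library kit kept strand, and the strand setting of the counting is not given in the sources used here.

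Secreted antagonists of the same cytokines were set beside them. Il1rn, which encodes the IL-1 receptor antagonist, was at 0.512, 1.48 and 0.82 CPM in WT CD and at 28.0, 43.4 and 61.6 CPM in WT HFD. HoipA-KO tissue held 95.4, 232 and 85.9 CPM on CD, and 80.6, 191 and 101 CPM on HFD. The rise in HoipA-KO on CD was 7.14 ± 0.84 on the log2 scale (adjusted p = 0.000513). Because CPM is not corrected for transcript length, the ratio of Il1b to Il1rn is read between groups only. Its log2 value was -1.39 ± 0.95 (SD, n = 3) in WT CD and -5.90 ± 0.81 in WT HFD. HoipA-KO values were lower, -6.91 ± 0.20 on CD and -7.04 ± 1.56 on HFD. The difference between genotypes was -5.52 on CD, with no overlap (exact permutation test, two-sided p = 0.1, and -5.11 without WT CD replicate 3), and -1.14 on HFD, with overlap (exact permutation test, two-sided p = 0.4, and -1.84 to -0.30 with 1 library left out). Il18bp, the soluble inhibitor of IL-18, was at 0.33 ± 0.30 on CD as log2 fold change (adjusted p = 0.42) and rose on HFD by 1.28 (adjusted p = 0.0226), which over 12 libraries was 1.26 (adjusted p = 0.0795). The log2 ratio of Il18 to Il18bp overlapped between genotypes on CD (difference 0.21, and -0.14 without WT CD replicate 2). On HFD the difference was -0.82 (exact permutation test, two-sided p = 0.1), and the groups barely parted, with the lowest WT HFD library at -0.214 and the highest HoipA-KO HFD library at -0.223. HoipA-KO HFD replicate 1 was the lowest at -1.57, and without it the difference was -0.46.

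On HFD 2 of the 10 genes were called between genotypes, Gsdmd higher and Gsdme lower in HoipA-KO, where 4.20% of the 18427 genes tested were called higher and 7.62% lower. Gsdmd was at 20.1, 23.0 and 28.3 CPM in WT HFD and at 37.9, 42.1 and 50.6 CPM in HoipA-KO HFD (log2 fold change 0.89 ± 0.20, adjusted p = 0.0261). Gsdme fell from 16.6, 16.8 and 13.8 CPM to 8.31, 5.13 and 8.34 CPM (log2 fold change -1.10 ± 0.25, adjusted p = 0.0265). In both genes the groups stood clear of each other, and the log2 ratio of Gsdmd to Gsdme was higher by 2.01 in HoipA-KO HFD (2.59 ± 0.42 against 0.59 ± 0.39, SD, n = 3, exact permutation test, two-sided p = 0.1). With all 12 libraries neither call held (adjusted p = 0.0538 for Gsdmd and 0.106 for Gsdme), where 0.531% of genes were called higher and 2.25% lower. Without WT HFD replicate 1, WT HFD replicate 2, HoipA-KO HFD replicate 2 or HoipA-KO HFD replicate 3 no member was called, and DESeq2 called 6 members on the same 11 libraries.

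The other 8 genes had estimates above 0 on HFD that did not pass, from 0.41 for Il18 to 1.19 for Pycard on the log2 scale. Aim2 (0.88, adjusted p = 0.0596), Pycard (1.19, adjusted p = 0.0702) and Casp1 (0.75, adjusted p = 0.086) came nearest to the threshold. In 7 of these 8 each HoipA-KO HFD library lay above each WT HFD library. With Gsdmd and Gsdme the 10 genes thus held 8 separated upward and 1 downward, against 20.8% and 24% of all genes over 12 libraries. For 2 genes that gap was narrow: the highest WT HFD and the lowest HoipA-KO HFD library had 2.49 and 2.50 CPM for Nlrp3, and 53.9 and 54.1 CPM for Casp1. Il1b overlapped, at 0.797, 0.461 and 0.607 CPM in WT HFD and 1.52, 0.355 and 0.835 CPM in HoipA-KO HFD. Its estimate of 0.55 turned to -0.02 without HoipA-KO HFD replicate 1.

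**Figure D3:**
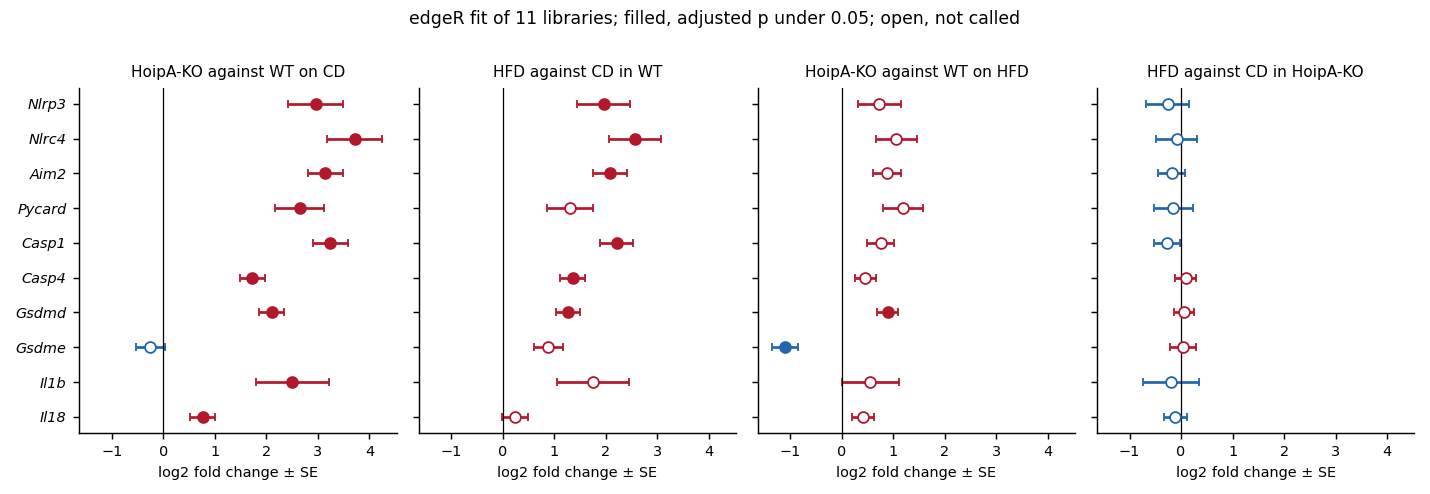
Log2 fold change ± SE of each gene in 4 comparisons, from the edgeR fit of 11 libraries. Filled points passed an adjusted p of 0.05 and open points did not, with red above 0 and blue below. Gsdme is the only point below 0 in both comparisons of genotype, and all points for HFD against CD in HoipA-KO lie between -0.27 and 0.09.

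In WT mice HFD raised 6 of the 10 genes, where 9.35% of all genes tested were called higher and 5.47% lower. Nlrc4 rose by 2.57 ± 0.50, Casp1 by 2.21 ± 0.32, Aim2 by 2.08 ± 0.33, Nlrp3 by 1.96 ± 0.51, Casp4 by 1.36 ± 0.24 and Gsdmd by 1.27 ± 0.23 on the log2 scale, with adjusted p values between 0.00617 and 0.033. WT HFD levels were 28.4, 44.1 and 53.9 CPM for Casp1 and 3.35, 6.44 and 10.7 CPM for Nlrc4, and in both genes replicate 1 was the lowest and replicate 3 the highest. Pycard (1.30, adjusted p = 0.0766), Gsdme (0.88, adjusted p = 0.0635), Il1b (1.76, adjusted p = 0.114) and Il18 (0.24, adjusted p = 0.535) were not called. With all 12 libraries, where 9.05% of genes were called higher and 5.97% lower, Pycard was called (1.65, adjusted p = 0.047) and Nlrc4 was not (1.73, adjusted p = 0.0602), for which WT CD replicate 3 at 3.61 CPM lay above the lowest WT HFD library. Without WT CD replicate 2, Gsdmd had an adjusted p of 0.0504 and Nlrp3 and Nlrc4 were not called. Nlrp3 also lost its call without WT CD replicate 1, WT HFD replicate 2 or 3, or HoipA-KO HFD replicate 3, with the estimate between 1.60 and 2.26 over all settings. With replicate 3 in place of WT CD replicate 1 the estimate for Casp4 was 2.17. Over 12 libraries 7 genes separated upward, against 17.8% of all genes (9.74% downward).

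In HoipA-KO mice no gene of the 10 was called between diets, nor was any gene in the table: 0% of the 18427 genes tested were called by edgeR, 415 had an unadjusted p under 0.05, and DESeq2 called 7 genes. Among the 10, 0 had an unadjusted p under 0.05 and DESeq2 called 0. Log2 fold changes for HFD against CD ran from -0.27 ± 0.26 for Casp1 to 0.09 ± 0.20 for Casp4. The groups overlapped in each of the 10, where 3.38% of all genes over 12 libraries separated upward and 2.5% downward.

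The effect of genotype itself differed between diets in 3 genes. The interaction, the log2 fold change of genotype on HFD minus that on CD, was -2.49 ± 0.41 for Casp1 (adjusted p = 0.0256), -2.26 ± 0.41 for Aim2 (adjusted p = 0.0272) and -2.66 ± 0.63 for Nlrc4 (adjusted p = 0.0485), where 0.331% of all genes were called higher and 3.58% lower. Estimates for all 10 genes were below 0, with a median of -1.70. Casp4 (-1.27, adjusted p = 0.0556), Gsdmd (-1.22, adjusted p = 0.0583) and Nlrp3 (-2.23, adjusted p = 0.0889) did not pass. With replicate 3 in place of WT CD replicate 2 the interaction of Nlrc4 was -1.45, and its call was lost in 13 of 18 alternative settings. All 12 libraries left Casp1 and Aim2 called, where 0.0775% of genes were called higher and 2.7% lower, and without WT CD replicate 2, WT HFD replicate 2, any 1 HoipA-KO CD library, or HoipA-KO HFD replicate 1 or 3, no member was called. Genotype effects on the 2 diets share no library, and WT CD has only 2 libraries in this fit.

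Set directly against each other, HoipA-KO CD and WT HFD differed in 5 genes, where 6.78% of all genes were called higher and 9.07% lower. Gsdmd (0.83 ± 0.20), Casp1 (1.03 ± 0.26), Pycard (1.34 ± 0.39) and Aim2 (1.06 ± 0.27) were higher in HoipA-KO on CD than in WT on HFD, with adjusted p values between 0.0252 and 0.0441. Gsdme was lower (-1.14 ± 0.25, adjusted p = 0.0193). None of the 5 passed with all 12 libraries, where adjusted p values of the 10 genes began at 0.0514 and 1.71% of all genes were called higher and 3.82% lower. Of the 10 genes 8 separated upward and 1, Gsdme, downward, against 22.5% and 24.6% of all genes. None passed either when WT HFD replicate 1 or 2 or any 1 HoipA-KO CD library was left out.

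Ordered by group mean over 12 libraries, WT CD was the lowest group for all 10 genes, and WT HFD came next for all but Gsdme. Without WT CD replicate 3 this held for 9 genes, and for Gsdme the WT CD mean was then 8.56 CPM, above both HoipA-KO groups. For Casp1 the means went from 8.03 CPM in WT CD and 42.1 CPM in WT HFD to 70.0 CPM in HoipA-KO HFD and 83.8 CPM in HoipA-KO CD, and for Pycard 7.19, 22.9, 51.6 and 56.8 CPM in the same order. Gsdmd went from 9.96 CPM in WT CD through 23.8 in WT HFD and 41.6 in HoipA-KO CD to 43.5 in HoipA-KO HFD. In all of these the neighbours HoipA-KO CD and HoipA-KO HFD overlapped. Gsdme had WT CD (6.97 CPM), HoipA-KO CD (7.01) and HoipA-KO HFD (7.26) overlapping with each other and WT HFD (15.7) above all of them.

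Across the 12 libraries the genes other than Gsdme moved together, with a median Pearson's r of 0.89 over 36 pairs (0.487 to 0.994). Each r in this paragraph was computed on log2(CPM + 1), which flattens differences between libraries under 1 CPM. Gsdme had a median r of 0.05 with the other 9 (-0.13 to 0.37). These are descriptions over libraries of 4 groups that share genotype and diet, with no p. Among 15717 genes with a mean of at least 1 CPM, the closest in pattern over the 12 libraries were Ccl9 for Casp1 (r = 0.999), Cd48 for Aim2 (0.998), Dnase2a for Pycard (0.997), Plekho2 for Nlrc4 (0.992), Fkbp10 for Gsdmd (0.991), Nlrp1b for Nlrp3 (0.989), Mapkapk2 for Casp4 (0.984), Elp3 for Gsdme (0.977), Mettl13 for Il18 (0.963) and Ms4a4c for Il1b (0.872).

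Transcripts of macrophages moved with the same comparisons. The summed CPM of 9 macrophage markers (Adgre1, Csf1r, Cd68, Lyz2, Mrc1, Fcgr1, Mertk, Cd14 and Itgam) was 365 to 591 in WT CD, 1660 to 4970 in WT HFD, 8280 to 11700 in HoipA-KO CD and 5980 to 10000 in HoipA-KO HFD. On CD 8 of the 9 rose in HoipA-KO, with a median log2 fold change of 3.75, on HFD 2 of 9 rose (4.20% of all genes), and with HFD in WT 8 of 9 rose (9.35% of all genes). Over 12 libraries 0 of 9 were called on HFD. Of 8 markers of lipid-associated macrophages 7 rose on CD, Lpl being an adipocyte gene as well, and of 10 adipocyte markers 9 fell on CD and 10 on HFD (8 and 7 over 12 libraries), against 18.8% and 7.62% of all genes. The 5 mast cell markers summed to 20 to 30.4 CPM in WT CD and to 548 to 657 CPM in HoipA-KO CD. On HFD the sums were 27.4 to 209 CPM in WT and 305 to 806 CPM in HoipA-KO. Kit hardly moved on CD, with means of 20.3 CPM in WT and 22.9 CPM in HoipA-KO. Means of Cpa3, Mcpt4, Tpsb2 and Cma1 were 0.842 to 1.84 CPM in WT CD and 101 to 185 CPM in HoipA-KO CD. Of the other lists on CD, 1 of 4 monocyte, 2 of 6 dendritic cell, 1 of 5 T cell, 1 of 5 NK cell, 1 of 6 neutrophil and 2 of 6 stem and progenitor cell markers were called higher, against 18.9% of all genes. Over 12 libraries these were 1 of 6 for dendritic cells and 0 of 5 for NK cells. Called lower were 3 of 5 endothelial, 2 of 4 pericyte and 1 of 8 epididymal markers (18.8% of all genes), with 1 of 5 endothelial and 1 of 4 pericyte markers over 12 libraries, and 0 of 4 B cell and 0 of 5 mesothelial markers were called. The defining neutrophil marker Ly6g had at most 3 counts in any library. In bulk tissue fewer or more cells of a type cannot be told apart from less or more RNA per cell, and the part of cell composition in the changes of the 10 genes was not tested.

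The 10 genes were then set against the mean log2 level of the 9 macrophage markers in the same library. On CD 98.6% of the 18074 genes tested were lower relative to those markers in HoipA-KO, with a median difference of -3.90 on the log2 scale, and 95.8% were lower without overlap. The 10 genes were lower too, with a median of -1.47, and 8 of 10 did not overlap, so their direction is not a result about them, and the sizes are given as a description. Gsdme differed most (-1.97 ± 0.44 in WT CD and -5.66 ± 0.30 in HoipA-KO CD, SD, n = 3, difference -3.68), near the median of all genes, followed by Il18 (-3.0) and Il1b (-2.34). Casp1 stood at -1.68 ± 0.10 in WT CD and -2.10 ± 0.10 in HoipA-KO CD, a difference of -0.43 with all 12 libraries and of -0.47 without WT CD replicate 3. Nlrc4 and Pycard overlapped between groups. The difference for Nlrc4 was -0.78, and -0.08 without WT CD replicate 3, which was at -2.44 while the other 11 libraries lay between -4.74 and -4.33. For Pycard it was -0.57, and 0.03 without WT CD replicate 2. On HFD the median difference was -0.43, against -1.16 over all genes, and of the 10 genes Casp1 (-0.43, and -0.29 without WT HFD replicate 1) and Gsdme (-2.32) were lower without overlap, as were 55.9% of all genes.

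**Figure D4:**
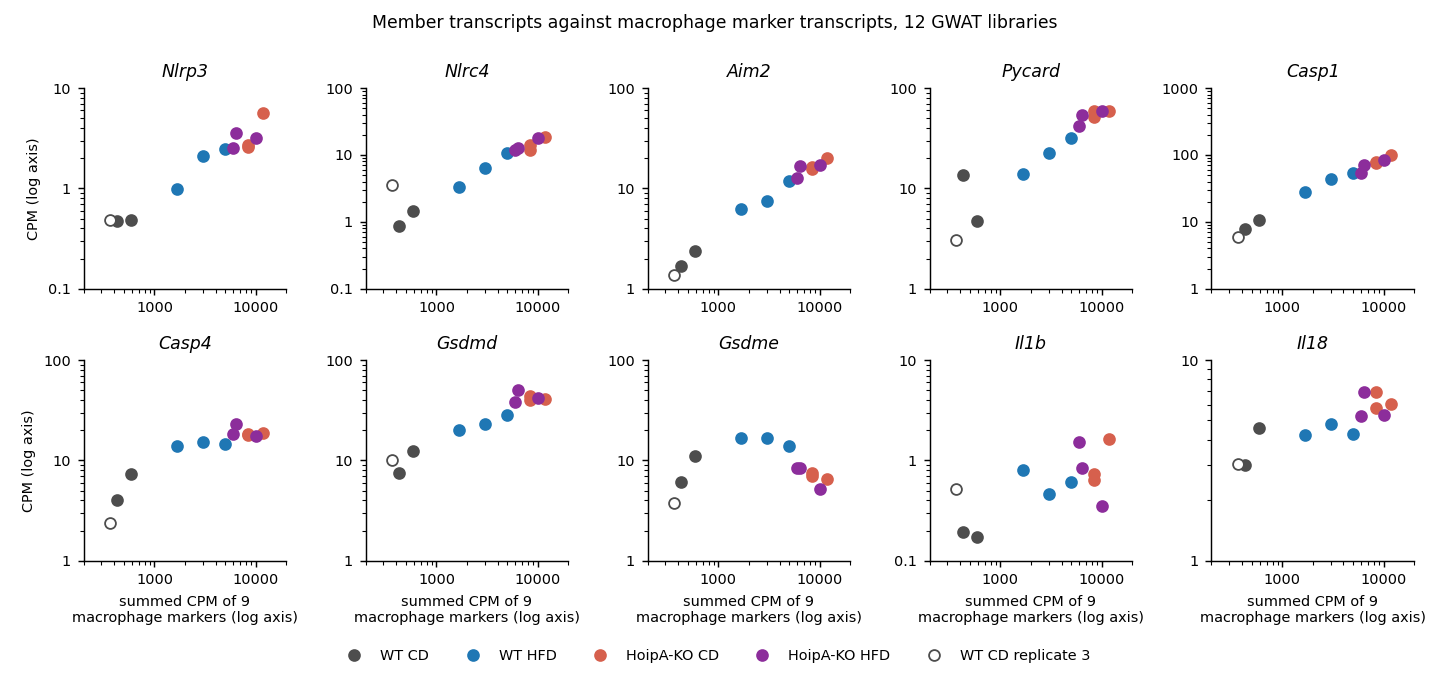
CPM of each gene against the summed CPM of 9 macrophage markers in the 12 GWAT libraries (both axes log), each point 1 library and the open circle WT CD replicate 3. Casp1 and Aim2 rise with the markers over the whole range, but by less than them in HoipA-KO on CD (log2 ratio differences -0.43 and -0.60). Nlrc4 and Pycard rise as well, with WT CD replicate 3 set apart for Nlrc4 and WT CD replicate 2 for Pycard. Casp4 and Il18 flatten out, and Gsdme turns down from WT HFD to HoipA-KO.

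Genes of the wider pathway were counted by role. Of 20 other sensors and activators tested, 11 rose and 0 fell on CD in HoipA-KO (median log2 fold change 1.52), 2 rose on HFD (4.20% of all genes), and 10 rose with HFD in WT (9.35% of all genes). P2rx7, the ATP-gated channel upstream of NLRP3, rose on CD by 2.81 ± 0.31 (adjusted p = 0.000467), Panx1, an ATP-releasing channel, by 4.28 ± 0.60, and Naip2, which senses secretion rods with NLRC4, by 3.96 ± 0.48. The Naip genes are related copies, and how far reads were shared between them was not measured here. Nek7 (0.26, adjusted p = 0.401) and Txnip (-0.10, adjusted p = 0.834), both known as NLRP3 partners, and Gbp2 (-0.29, adjusted p = 0.497), a guanylate-binding protein with close copies, did not pass on CD. The lists were chosen with results of these libraries known, so their counts are descriptions, read against the 18.9% of all genes called higher on CD and the 4.20% on HFD. Every call on HFD in these pathway lists was absent from the fit of 12 libraries.

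Of the other gasdermins and Ninj1, which executes membrane rupture after pore formation, only Ninj1 passed the filter on low counts. It rose on CD by 2.82 ± 0.39 (adjusted p = 0.000833) and on HFD by 1.29 ± 0.32 (adjusted p = 0.033), the latter not called with 12 libraries (1.27, adjusted p = 0.0573). Its level was 42.1, 29.8 and 25.8 CPM in WT CD and 222, 260 and 263 CPM in HoipA-KO CD. Of 9 other caspases and proteases that cut gasdermins, 2 rose on CD, a share near the 18.9% of all genes called higher. These were Casp8 by 0.67 ± 0.19 (adjusted p = 0.0234) and Gzmb by 2.05 ± 0.66 (adjusted p = 0.0348). Gzmb was low, with means of 0.5 CPM in WT CD and 2.36 ± 1.4 CPM (SD) in HoipA-KO CD.

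Among 10 inhibitors 5 rose and 1 fell on CD. Beside Il1rn these were the decoy receptor Il1r2 (2.77 ± 0.49), Serpinb1a, an inhibitor of neutrophil proteases and caspase-1 (2.41 ± 0.30), Trim30a (1.30 ± 0.27) and the inhibitory receptor Cd300a (5.58 ± 0.68), while Nlrx1, a mitochondrial NLR protein, fell by 0.55 on the log2 scale and was not called with 12 libraries (adjusted p = 0.397). On HFD Il1r2, Il18bp and Serpinb1a rose. Of the other IL-1 family ligands 3 of 6 were tested and 2 rose on CD. Il1a was at 1 to 9 counts per WT CD library and 22 to 35 in HoipA-KO CD, and Il36g at 0 to 1 and 39 to 108 counts.

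Of 11 receptors and signaling genes 5 rose on CD, among them the adaptor Myd88 (0.94 ± 0.18, adjusted p = 0.00323), the kinase Irak4 (1.39 ± 0.24) and the IL-33 receptor Il1rl1 (2.86 ± 0.57). On HFD Myd88 rose (0.64, adjusted p = 0.0306) and Irak2 fell (-0.82, adjusted p = 0.0362). Of 9 genes known to be induced by IL-1 or IL-18, 5 rose on CD: Ccl2 (3.46 ± 0.42), Cxcl2 (3.72 ± 0.78), Icam1 (1.93 ± 0.17), Il6 (2.37 ± 0.78) and Cxcl1 (1.74 ± 0.53). Il6 rested on few counts, with a mean of 0.0506 CPM in WT CD, near the level of 3 counts, and of 0.349 ± 0.238 CPM (SD) in HoipA-KO CD. Nos2, the inducible nitric oxide synthase, fell by 1.52 on the log2 scale on CD, and this was not called with 12 libraries (adjusted p = 0.0521). On HFD Cxcl2 and Icam1 rose. Other signals induce the same genes, so the counts do not measure IL-1 activity.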

How the data were processed

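Estimated counts per gene were deposited by the authors as a merged Salmon table of 12 GWAT libraries. Per the labels and the study's methods, poly(A) RNA was read after Trim Galore 0.6.7, aligned with STAR 2.7.10a and quantified with Salmon 1.5.2, with GRCm38 in the submitters' processing notes. A strand setting of the counting is not given in the sources used here. Values were rounded to whole numbers (38009 lay over 0.01 from one). All 55281 rows entered the totals, 59 of them with no symbol, and libraries were grouped by the labels. The other deposited tables, which hold the authors' own comparisons with DESeq2 or the same counts, were not used.

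Genes were filtered with filterByExpr (18427 left with 11 libraries, 18074 with 12), scaled with TMM factors and fitted together, 1 model for all 4 groups, by the quasi-likelihood test of edgeR 4.0.16 (limma 3.58.1, R 4.3.3) without WT CD replicate 3. P-values were adjusted by Benjamini-Hochberg over all genes tested, with a threshold of 0.05. Fold changes have a prior count of 0.125, and the SE is the fold change over the root of its F value. Ratios were formed per library with 0.1 CPM added and compared by exact permutation tests in SciPy 1.17.1, Python 3.11.15, pandas 2.3.3. Figures were drawn with matplotlib 3.10.9.

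Alternatives were size factors and the Wald test of DESeq2 1.42.0, no filter, all 12 libraries, a replicate block, 1 CPM added, library-size scaling for the ratios, and each library left out. The test was checked on simulated counts of 11 libraries, with 100 genes changed 4-fold and 100 changed 2-fold in HoipA-KO CD. It recovered 60% of the 4-fold and 11% of the 2-fold changes, and 4.05% of its calls were false. In the data 6947 genes were called on CD, many more than were changed in the simulation. The adjusted threshold therefore differs, and the rates do not describe the real comparison on CD. They were not obtained for the other comparisons. A gene that was not called may still differ by 2-fold. Genes named beyond the 10 either passed the threshold or were among the 3 most abundant of a pathway list. The genes and lists were chosen with earlier results of these data known. Library totals limit the precision of low genes: at 3 counts the level is at most 0.0996 CPM.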

Additional observations from a re-analysis of the deposited data

Results flagged for a closer look

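The effect of genotype differed between diets by a tested interaction (edgeR's quasi-likelihood test, adjusted p under 0.05, 11 libraries) in 3 of the 10 genes and in 8 genes of the pathway lists, and all 11 were lower on HFD than on CD. Casp1 had an interaction of -2.49, Aim2 of -2.26 and Nlrc4 of -2.66 on the log2 scale. Among sensors and activators Naip2 had -3.26, Nlrp10 -2.28, Naip6 -2.17 and P2rx7 -2.04, and sharing of reads between the related Naip genes was not measured. Of the inhibitors Il1rn had -5.63 and Cd300a -4.16, and of the genes induced by IL-1 or IL-18, Ccl2 had -3.15 and Icam1 -1.04. Over the same fit 3.58% of all genes had a lower interaction, and 5 of the 9 macrophage markers were among them. The part of the macrophage markers in these values was not tested.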

How the results depend on the processing

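On CD the calls of Nlrp3, Nlrc4, Aim2, Pycard, Casp1, Casp4 and Gsdmd held under all 18 alternatives, and Il1b and Il18 were the 2 that did not. Of the fold changes of the 10 genes over all comparisons and alternatives, 924 kept direction and side of the threshold, 104 lost a call, 38 gained one and 14 turned direction, and of the ratios 422 kept direction and 26 turned. The cause of these changes was not tested. With all 12 libraries 503 genes and 0 of the 10 were called between genotypes on HFD, against 2179 and 2, and 999 and 0 between HoipA-KO CD and WT HFD, against 2920 and 5. With DESeq2's Wald test 4410 genes and 6 of the 10 were called between genotypes on HFD, 4551 between diets in WT (against 2731), 7 between diets in HoipA-KO (against 0), 4956 between HoipA-KO CD and WT HFD, and 2350 with 6 of the 10 for the interaction (against 721 and 3). With replicate 3 in place of WT CD replicate 1, counts were 1298 genes between genotypes on HFD, 7046 between diets in WT, 1788 between HoipA-KO CD and WT HFD, and 3550 with 5 of the 10 for the interaction. In place of WT CD replicate 2 they were 672 with 1 of the 10 on HFD, 1214 with 2 of the 10 between HoipA-KO CD and WT HFD, and 326 for the interaction.

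Whether replicate numbers pair the libraries was not settled, and the main fit had no replicate block. Of 18 same-number pairs 6 had a correlation of deviations over 0.1 (-0.311 to 0.499), against 7 of 36 other pairs (-0.51 to 0.428). By mean correlation 8 of 12 libraries went best with their own number. With the replicate block 1502 genes were called between diets in WT and 377 with 1 of the 10 for the interaction, and of the 10 genes 8 were called on CD, 3 on HFD, 5 between diets in WT, 0 in HoipA-KO and 5 between HoipA-KO CD and WT HFD.

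Leaving out 1 of the 11 libraries at a time gave 5082 to 7723 genes (main value 6947) and 7 to 9 of the 10 on CD, 279 to 3797 genes and 0 to 5 of the 10 on HFD, 1045 to 5985 genes and 4 to 7 of the 10 between diets in WT, 0 in HoipA-KO, 493 to 4416 genes and 0 to 6 of the 10 between HoipA-KO CD and WT HFD, and 1 to 3668 genes and 0 to 6 of the 10 for the interaction. Fold changes that turned, on the log2 scale and none of them called, were Gsdme on CD (-0.61 to 0.22, and 0.492 with replicate 3 in place of WT CD replicate 1), Il1b on HFD (-0.0218 to 0.927), Il18 between diets in WT (-0.0214 to 0.58) and 7 between diets in HoipA-KO: Nlrp3 (-0.462 to 0.228), Nlrc4 (-0.309 to 0.128), Pycard (-0.27 to 0.00638), Casp4 (-0.0405 to 0.172), Gsdmd (-0.0605 to 0.171), Gsdme (-0.0732 to 0.224) and Il1b (-0.753 to 0.39).

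Differences of log2 ratios that turned were Il18 to Il18bp on CD (-0.135 to 0.443), Gsdmd to Gsdme between diets in WT (-0.26 to 0.355, and 0.019 with 1 CPM added) and in HoipA-KO (-0.171 to 0.248), and Il1b to Il1rn in HoipA-KO (-0.822 to 0.714, and 0.00538 with 1 CPM added). Against macrophage markers they were Pycard on CD (-0.875 to 0.0299) and on HFD (-0.0345 to 0.135), Nlrc4 on HFD (-0.0699 to 0.0238) and, between diets in HoipA-KO, Nlrp3 (-0.266 to 0.117), Nlrc4 (-0.0849 to 0.0285), Pycard (-0.202 to 0.0315), Gsdmd (-0.0362 to 0.292), Gsdme (-0.212 to 0.463), Il1b (-0.772 to 0.477) and Il18 (-0.206 to 0.175). Il1b and Nlrp3 rest on few counts in WT CD, which limits both. Where 1 WT CD library remained, it was assumed to vary like the other groups.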

Other observations

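Ptgs2, which encodes the prostaglandin synthase COX-2 and is listed among the genes induced by IL-1, was at 410 CPM (22072 counts) in HoipA-KO HFD replicate 1 and between 0.502 and 1.69 CPM in the other 11 libraries. In that library 54 genes were over 8 times above every other library and held 1.12% of its counts. Il1b was at 1.52 CPM there, against 0.355 and 0.835 CPM in the other HoipA-KO HFD libraries. The same library had the highest sums of monocyte (149 CPM) and neutrophil markers (89.8 CPM). Its epididymal markers summed to 1610 CPM, and those of WT CD replicate 2 to 19100 CPM. The sums hide which markers were high. Mean Crisp1 was 436 CPM in HoipA-KO HFD and 6220 CPM in WT CD without replicate 3, and mean Lcn8 was 9.65 and 0.0428 CPM. What the Ptgs2 level in HoipA-KO HFD replicate 1 comes from was not tested.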
